A study of Rattus norvegicus with 25 samples.

Results

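The genes described here are the inhibin beta subunit Inhbb and the activin pathway around it: the subunit genes Inhba and Inha, the receptor genes Acvr1, Acvr1b, Acvr2a and Acvr2b, the antagonist follistatin (Fst), and the intracellular mediators Smad2 and Smad3. They were 10 of the 26312 gene identifiers in each of the tables for the basolateral amygdala (BLA) and the dentate gyrus (DG), matched by gene name. The group was chosen from the measured levels of Inhbb in stress-high and stress-low BLA libraries, and the other 9 genes were added as its pathway partners. Every value of the 10 genes in that BLA comparison is therefore given as a description, with no test. All 10 genes passed the filter on low counts in both regions.

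Activins are dimers of inhibin beta subunits: pairs of the Inhba product form activin A and pairs of the Inhbb product form activin B, whereas a beta subunit joined to the Inha product forms an inhibin, which opposes activin. An activin dimer binds a type II receptor (Acvr2a or Acvr2b), which recruits and phosphorylates a type I receptor such as Acvr1b; the type I receptor then phosphorylates Smad2 and Smad3, and follistatin blocks the pathway by binding the ligand outside the cell. In the hippocampus, Inhba is known as a gene induced by neuronal activity, and activin has been linked to synaptic plasticity and to anxiety-related behavior.

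RNA was measured in adult male wild-type Sprague-Dawley rats that were either immobilized for 3 h with predator scent (fox urine) or left in the home cage, and the tissue was taken on day 9, after behavioral testing. Stress-exposed rats were selected for sequencing by a composite score of anxiety-like behavior, from 0 to 2 in stress-low rats and from 13 to 15 in stress-high rats, and the home-cage controls scored from 0 to 6. Poly-A RNA came from punches of the left BLA (7 control, 3 stress-low and 3 stress-high libraries) and of the left dorsal DG (6, 3 and 3). The labels and the study's methods speak of 12 rats with 6 controls, whereas the library names hold 14 animal numbers and 7 BLA controls, and animals 27 and 30 appear only in the BLA and animal 33 only in the DG; this disagreement was not resolved. By these numbers 11 animals gave a library in each region, so the regions are separate readouts of largely the same animals and not independent sets of animals. The punches hold mixed cells, so that fewer cells of a type and less RNA per cell cannot be told apart.

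Libraries held 12709493 to 22801247 expected counts in the BLA and 11656439 to 19477932 in the DG, and every stress-high DG library (from 16201792) was deeper than every stress-low DG library (up to 15547038). One control in each region stood far from the others on the first principal component and was left out of the main comparisons, animal 2 in the BLA and animal 35 in the DG. The BLA library of animal 35 is named a control while its treatment label says immobilization, and it was kept as a control. Of the 5 granule cell markers of the DG, Prox1, C1ql2 and Dsp had medians of 70.7, 344.0 and 5.89 TPM (transcripts scaled for gene length and for the total of the library) in DG libraries against 2.58, 2.96 and 0.20 TPM in BLA libraries, while C1ql3 (322.0 TPM in the DG, 509.0 TPM in the BLA) and Calb1 (105.0 and 134.0 TPM) were higher in the BLA. The 5 markers of BLA excitatory neurons summed to 338.0 to 507.0 TPM in the BLA and 262.0 to 360.0 TPM in the DG, and 2 of them, Rspo2 (12.1 TPM in the BLA, 19.8 TPM in the DG) and Neurod6 (108.0 and 157.0 TPM), had a lower median in the BLA than in the DG. For each of the 10 marker lists of brain cell types, the summed TPM of stress-high and stress-low libraries overlapped in each region. The BLA punches were still uneven for the 6 central amygdala and striatum markers. These summed to 108.0 to 221.0 TPM (median 111.0) in stress-low and 103.0 to 121.0 TPM (median 113.0) in stress-high BLA libraries. Kept controls held 84.6 to 235.0 TPM and the left-out control 398.0 TPM, and the part of this in the differences was not tested. The choroid plexus gene Ttr was at 0 in every BLA library and at most 0.24 TPM in the DG.

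The beta subunit genes have unlike upstream sequences, which are shown because these are the genes with opposite regional levels. The 250 bases before the annotated start of each gene (RefSeq, rat build GRCr8, 5′ to 3′ on the gene's strand) are printed with motif matches on either strand in capitals. The first motif searched was the GC-rich box GGGCGG, whose counted matches may overlap each other. The second was the box named for its letters, TATAAA. The Inhba window lies inside the longest span annotated for that gene. RefSeq sequences were found for 8 of the 10 genes.
Inhbb, chr13:33089374-33089623, minus strand: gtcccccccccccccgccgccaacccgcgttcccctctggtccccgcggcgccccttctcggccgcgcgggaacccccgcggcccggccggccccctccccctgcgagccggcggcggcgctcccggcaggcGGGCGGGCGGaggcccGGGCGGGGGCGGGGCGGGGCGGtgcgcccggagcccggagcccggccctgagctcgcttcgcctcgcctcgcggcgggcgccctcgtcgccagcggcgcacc
Inhba, chr17:53804509-53804758, minus strand: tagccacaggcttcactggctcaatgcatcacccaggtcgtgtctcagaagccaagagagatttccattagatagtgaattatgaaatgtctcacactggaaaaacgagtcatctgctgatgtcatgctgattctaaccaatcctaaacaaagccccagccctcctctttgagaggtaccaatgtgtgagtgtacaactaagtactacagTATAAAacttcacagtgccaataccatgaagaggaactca
The Inhbb window held 6 GC boxes and 0 TATA boxes, with 86.8% G and C bases. The Inhba window held 0 GC boxes and 1 TATA box, which begins 40 bases before the start, with 43.6% G and C bases. Of all 33469 windows of the same length, 30.5% held a GC box, 1.72% held 5 or more, and 12.9% held a TATA box. These matches describe the letters only.

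In control animals, the type I receptor Acvr1b had the highest level of the 10 genes in both regions, and the beta subunit genes were among the lowest. In the BLA the order of mean levels ran from Acvr1b (41.4 ± 3.68 TPM, SD, n = 6) and Acvr2a (38.5 ± 5.83 TPM) through Smad2 (20.2 ± 1.63 TPM), Acvr1 (14.0 ± 0.89 TPM), Smad3 (8.93 to 12.92 TPM) and Inha (9.21 ± 0.976 TPM) to Acvr2b (4.98 ± 0.426 TPM), Inhbb (3.81 ± 1.40 TPM), Inhba (0.58 to 1.52 TPM) and Fst (0.942 ± 0.518 TPM). The ranges of Acvr1b and Acvr2a overlapped, as did those of Acvr1 with Smad3, Smad3 with Inha, Acvr2b with Inhbb, and Inhba with Fst; the other neighbors did not overlap. In the DG, Acvr1b was again highest (59.5 ± 4.19 TPM, SD, n = 5), followed by Acvr1 (44.0 ± 4.62 TPM) and Smad3 (43.5 ± 6.08 TPM), whose ranges overlapped. Acvr2a (29.4 ± 3.11 TPM) came next, and Smad2 (12.1 ± 1.04 TPM), Inha (11.9 ± 2.72 TPM), Fst (5.75 ± 2.04 TPM), Inhba (4.71 ± 1.19 TPM) and Acvr2b (2.45 ± 0.370 TPM) each overlapped with the neighbor above, except that Smad2 lay below Acvr2a. Inhbb was lowest in the DG, at 1.37 ± 0.284 TPM, and its range lay below that of Acvr2b.

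**Figure D1:**
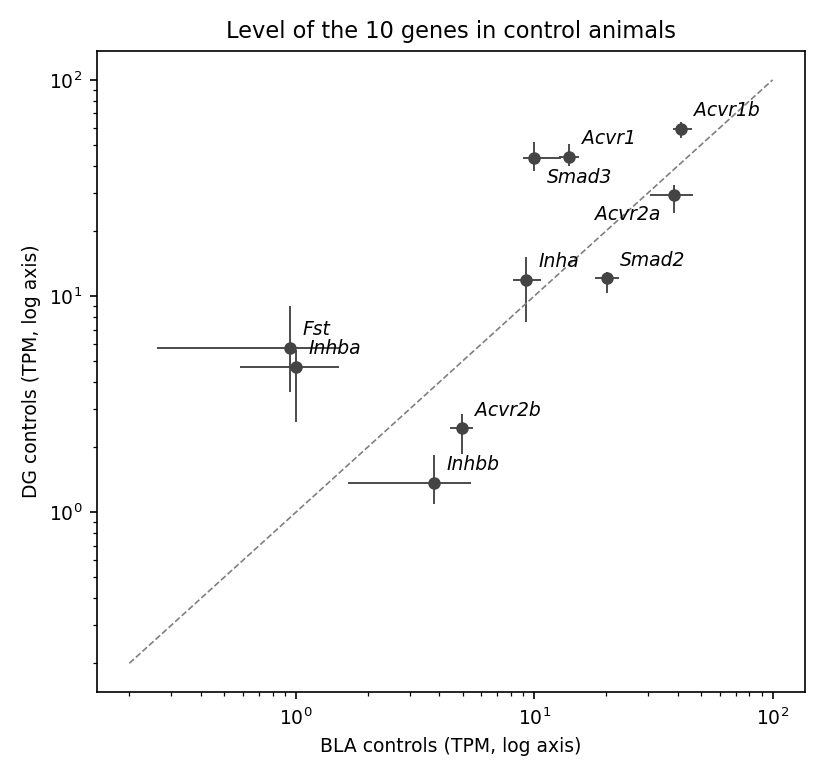
Mean level of each of the 10 genes in BLA controls (x axis, TPM, n = 6) and DG controls (y axis, TPM, n = 5), both on log axes, with bars from the lowest to the highest library and a dashed line at equal levels. Inhba, Fst, Smad3, Acvr1, Acvr1b and Inha lie above the line, and Inhbb, Acvr2b, Smad2 and Acvr2a lie below it.

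The regional contrast went the same way in every animal for 9 of the 10 genes. In the 9 rats with a kept library in both regions, DG levels exceeded BLA levels in 9 of 9 for Inhba (median ratio 7.83, from 2.47 to 12.0), Fst (6.36, from 3.33 to 21.7), Smad3 (4.21, from 3.87 to 5.68), Acvr1 (3.01, from 2.59 to 3.58) and Acvr1b (1.36, from 1.14 to 1.56). DG levels were lower in 9 of 9 for Inhbb (median ratio 0.346, from 0.242 to 0.476), Acvr2b (0.468, from 0.318 to 0.578), Smad2 (0.607, from 0.543 to 0.686) and Acvr2a (0.788, from 0.648 to 0.985). Inha was higher in the DG in 7 of 9. The ligand gene Inhbb, both type II receptors and Smad2 were thus lower in the DG, while the ligand gene Inhba, both type I receptors, Smad3 and the antagonist Fst were higher there. The effective gene lengths show that the libraries of the regions were made or sequenced differently (the median gap between gene length and effective length was 50 bases in the BLA and 267.7 in the DG), and the tables were made separately, so region and library type cannot be told apart.

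Inhbb encodes the subunit of activin B. In the BLA its level was 3.03, 3.10 and 2.38 TPM in stress-low animals 22, 30 and 34 and 3.67, 4.82 and 4.44 TPM in stress-high animals 7, 19 and 20. Every stress-high library lay above every stress-low library, which is the pattern that the gene was chosen for. The lowest stress-high value inside this gap was 3.67 TPM and the highest stress-low value was 3.10 TPM. The fitted difference was 0.65 on the log2 scale (SE 0.29), from 0.55 to 0.70 when any 1 stress library was left out. Across all tested BLA genes, 1.18% had every stress-high library above every stress-low library, 1.98% had an unadjusted p under 0.05 in this comparison and 0.0% had an adjusted p under 0.05.

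The mean of the BLA controls (3.81 ± 1.40 TPM, SD, n = 6) lay between those of the stressed groups, but their range was wider than either. Inhbb was at 4.09, 3.62, 5.42, 2.94, 5.12 and 1.65 TPM in controls 14, 17, 27, 28, 32 and 35, and at 2.21 TPM in the left-out animal 2. Controls held both the lowest and the highest value of the region, and their range covered both stressed groups. Against controls, Inhbb differed by -0.46 (SE 0.26) on the log2 scale in stress-low animals and by 0.19 (SE 0.25) in stress-high animals, with an adjusted p of 1.0 for each (edgeR). The exact 2-sided permutation p of the mean TPM was 0.333 for stress-low and 0.595 for stress-high animals. These comparisons share their stress libraries with the one that chose the gene, and they share the controls with each other. Without control 35, which had the lowest level and whose labels disagree, the differences were -0.61 (SE 0.17) and 0.04 (SE 0.16), and the unadjusted p for stress-low animals (edgeR) went from 0.0943 to 0.00308, with an adjusted p of 1.0 in each case.

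The DG libraries were not used to choose Inhbb. There its level was 1.16, 1.14 and 0.84 TPM in stress-low animals 22, 33 and 34 and 1.27, 1.52 and 2.06 TPM in stress-high animals 7, 19 and 20. Again every stress-high library lay above every stress-low library, although the gap between the groups was only that from 1.16 to 1.27 TPM. The counts behind these levels were low, from 18.0 to 34.0 in stress-low and from 39.0 to 73.0 in stress-high libraries. The fitted difference was 0.62 on the log2 scale (SE 0.25), with an unadjusted p of 0.0268 and an adjusted p of 1.0 (edgeR). The exact 2-sided permutation p was 0.1, the smallest that 3 against 3 libraries allow. Of all tested DG genes, 4.18% had every stress-high library above every stress-low library, 3.12% had an unadjusted p under 0.05 and 0.0% had an adjusted p under 0.05. The difference was 0.43 (unadjusted p = 0.138, edgeR) without stress-high animal 20 and 0.75 without stress-high animal 7.

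Of the stressed rats, 5 gave libraries in both regions. The DG controls were at 1.84, 1.29, 1.09, 1.40 and 1.24 TPM (animals 2, 14, 17, 28 and 32), with the left-out animal 35 at 0.93 TPM, and overlapped with both stressed groups. In the DG, Inhbb differed from controls by -0.37 (SE 0.23) in stress-low and by 0.26 (SE 0.21) in stress-high animals, with adjusted p of 0.756 and 1.0 (edgeR). For Inhbb, the BLA difference between stress-high and stress-low animals minus the DG difference was 0.01 (SE 0.48), given without a test because it contains the BLA comparison.

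**Figure D2:**
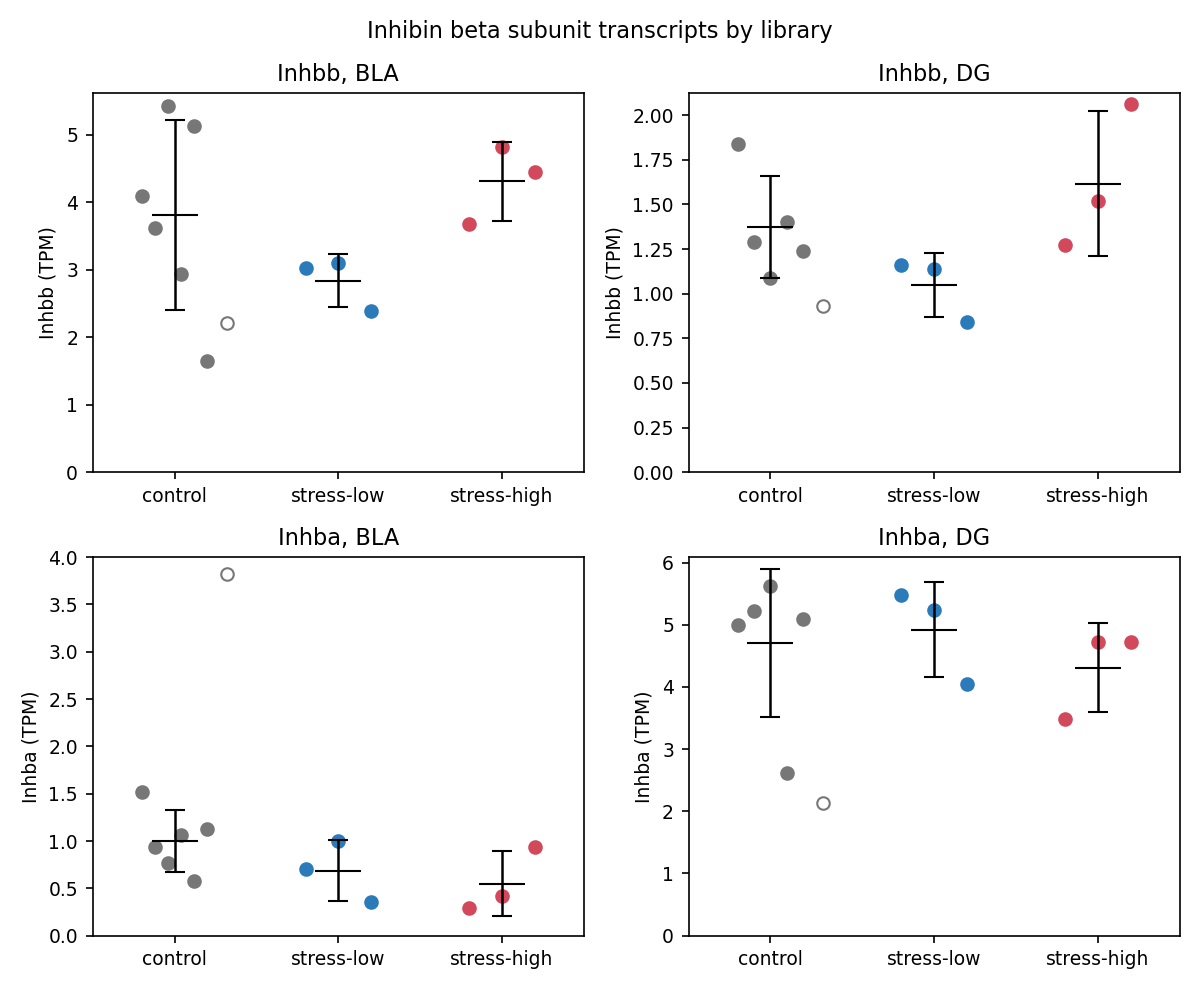
Level of Inhbb (upper row) and Inhba (lower row) in TPM in each BLA and DG library, by group; filled points are libraries in the main comparisons, open points the left-out controls, and black lines the mean ± SD. Stress-high Inhbb levels (3.67 to 4.82 TPM in the BLA, 1.27 to 2.06 TPM in the DG) lie above stress-low levels in both regions, and the BLA controls (1.65 to 5.42 TPM) span both stressed groups.

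Inhba, the subunit of activin A, did not follow Inhbb. In the BLA it was near the limit of counting, with 6.0 to 25.0 expected counts in the kept libraries. Its BLA level was 0.70, 1.0 and 0.36 TPM in stress-low animals 22, 30 and 34, 0.29, 0.42 and 0.94 TPM in stress-high animals 7, 19 and 20, and 0.58 to 1.52 TPM in the 6 controls. All groups overlapped, and the fitted difference of stress-high from stress-low animals was -0.35 (SE 0.49). Against controls, Inhba was lower by a log2 difference of -0.93 (SE 0.42) in stress-high animals, with an unadjusted p of 0.0457 and an adjusted p of 1.0 (edgeR). That value ranged from -1.44 without animal 20 to -0.63 without animal 7, and it was -1.36 with the left-out control 2, whose Inhba level of 3.82 TPM was the highest in the BLA. The exact 2-sided permutation p was 0.119.

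In the DG, where Inhba is the more abundant beta subunit, its level was 5.48, 5.24 and 4.05 TPM in stress-low animals 22, 33 and 34 and 3.49, 4.73 and 4.72 TPM in stress-high animals 7, 19 and 20. Controls spanned 2.62 to 5.62 TPM and overlapped with both. The fitted difference of stress-high from stress-low animals was -0.19 (SE 0.25), the opposite sign to Inhbb. Neither difference from controls passed the test, at 0.08 (SE 0.23) for stress-low and -0.10 (SE 0.22) for stress-high animals, with adjusted p of 0.949 and 1.0 (edgeR).

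The share of Inhbb in the summed TPM of Inhbb and Inhba sets the subunits side by side within a library. In the BLA it was 77.1 ± 11.1% (SD, n = 6) in controls, 81.2 ± 5.65% (n = 3) in stress-low and 89.1 ± 5.70% (n = 3) in stress-high animals, with overlapping ranges. In the DG it was 23.5 ± 7.44% (SD, n = 5) in controls, 17.5 ± 0.351% (n = 3) in stress-low and 27.1 ± 3.07% (n = 3) in stress-high animals. The DG shares of 26.7, 24.3 and 30.4% in stress-high animals 7, 19 and 20 lay above those of 17.5, 17.9 and 17.2% in stress-low animals 22, 33 and 34, and controls from 16.2 to 34.8% covered both. The exact 2-sided permutation p of stress-high against stress-low was 0.1, the smallest possible, and 0.214 after Benjamini-Hochberg adjustment over the 3 DG comparisons.

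Inha, the subunit that turns a beta subunit into an inhibin, showed no difference that passed a test. Its level in stress-low and stress-high animals was 8.87 to 12.00 and 7.96 to 11.52 TPM in the BLA and 10.10 to 12.46 and 10.88 to 13.58 TPM in the DG. Stress-high animals differed from stress-low animals by -0.02 (SE 0.14) in the amygdala punches and by 0.11 (SE 0.19) in the DG. The Inha level (TPM) was above that of either beta subunit in every library.

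No receptor had a fitted difference of the size of that of Inhbb between stress-high and stress-low animals. In the BLA, Inhbb was chosen by its levels in these groups, so its larger difference there is in part due to that choice. Acvr1b, the type I receptor of activin, was at 39.70, 48.18 and 42.84 TPM in stress-low and at 39.95, 44.06 and 50.86 TPM in stress-high BLA libraries, which overlap. Its difference of stress-high from stress-low animals was 0.08 (SE 0.07) in the BLA and 0.05 (SE 0.06) in the DG. In the DG its 3 stress-high libraries lay within 57.19 to 57.94 TPM, inside the stress-low range of 53.70 to 59.69 TPM.

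Acvr1, a type I receptor that also serves bone morphogenetic proteins, was the other gene whose BLA groups did not overlap, by a gap from 14.33 to 14.37 TPM; 4.71% of all BLA genes had every stress-high library below every stress-low library. It was at 14.59, 14.37 and 15.17 TPM in stress-low animals 22, 30 and 34 and at 12.47, 13.08 and 14.33 TPM in stress-high animals 7, 19 and 20. Stress-high libraries were all lower, by a fitted difference of -0.11 (SE 0.08), and controls (12.71 to 15.47 TPM) covered both groups. In the DG the difference was -0.01 (SE 0.08), with 40.3 ± 1.04 TPM in stress-low and 40.0 ± 2.30 TPM in stress-high animals (SD, n = 3 each).

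The type II receptors had differences of the opposite sign to Inhbb in both regions, none past the test in the DG. Acvr2a differed between stress-high and stress-low animals by -0.13 (SE 0.10) in the BLA and by -0.07 (SE 0.12) in the DG, and Acvr2b by -0.13 (SE 0.13) and -0.19 (SE 0.23). In the DG, Acvr2b was at 1.86, 1.77 and 2.47 TPM in stress-low animals 22, 33 and 34, at 2.15, 1.49 and 1.68 TPM in stress-high animals 7, 19 and 20, and at 1.86 to 2.85 TPM in controls. Its DG counts were low, from 30.0 to 49.0 in the kept libraries. The stress-high level was below that of controls by a log2 difference of -0.44 (SE 0.20), with an unadjusted p of 0.0448 and an adjusted p of 1.0 (edgeR), and the ranges overlapped. The exact 2-sided permutation p was 0.0714. This difference was -0.30 (SE 0.27) when the left-out control 35, which had the lowest Acvr2b level of the region (0.84 TPM), was included.

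The antagonist Fst, which binds and neutralizes activin, was sparse in the BLA, with 3.0 to 32.0 expected counts in the kept libraries. It was at 0.33, 2.24 and 1.18 TPM in stress-low animals 22, 30 and 34 and at 0.99, 1.08 and 1.31 TPM in stress-high animals 7, 19 and 20, so that a single stress-low animal held the highest and another the lowest of the stressed values. The fitted difference was -0.16 with an SE of 0.60, so a change as large as that of Inhbb could not be told from none at this depth. In the DG, with 32.0 to 83.0 counts, Fst was at 5.6, 7.38 and 7.51 TPM in stress-low and at 6.79, 7.56 and 5.75 TPM in stress-high libraries, and the difference was -0.01 (SE 0.27). Stressed animals were at 6.83 ± 1.07 TPM (stress-low) and 6.70 ± 0.908 TPM (stress-high) against 5.75 ± 2.04 TPM (SD, n = 5) in controls, differences of 0.25 (SE 0.25) and 0.24 (SE 0.24) with adjusted p of 0.834 and 1.0 (edgeR).

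Smad2 and Smad3, which carry the activin signal to the nucleus, showed no stress difference that passed the test. Smad2 differed between stress-high and stress-low animals by -0.01 (SE 0.07) in the BLA and by -0.14 (SE 0.10) in the DG. Smad3 differed by -0.10 (SE 0.12) in the BLA, with 8.21 to 9.97 TPM in stress-high and 9.00 to 10.25 TPM in stress-low animals, and by 0.01 (SE 0.13) in the DG. Against controls, Inha, Acvr1, Acvr1b, Acvr2a, Smad2 and Smad3 differed by -0.07 to 0.07 in stress-low and by -0.17 to 0.12 in stress-high BLA animals, and by -0.11 to 0.09 and -0.12 to 0.02 in the DG, none past the test. Smad RNA levels do not report phosphorylation, the step by which the receptors act on them.

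Over the 10 genes, 0 passed an adjusted p of 0.05 in any comparison that was tested. At an unadjusted p under 0.05, 0 of 10 passed for stress-low against control in the BLA (2.75% of all BLA genes) and in the DG (6.9% of all DG genes). For stress-high against control, 1 of 10 passed in the BLA (Inhba, against 2.57% of all genes) and 1 of 10 in the DG (Acvr2b, against 2.19%); the adjusted p was under 0.05 for 0.0% of all genes in each of these comparisons. Over the 10 genes, the median fitted difference of stress-high from stress-low animals came to -0.10 for BLA and -0.01 for DG libraries, beside -0.001 and 0.0 over all tested genes. The sign of the difference was shared by the regions for 8 of 10 genes, and for 53.9% of the 13865 genes tested in both, a description that includes the values that chose Inhbb and comes largely from the same animals. The BLA difference minus the DG difference, which contains the comparison that chose Inhbb, is given without a test and lay between -0.19 and 0.11 for the 10 genes; of all genes, 2.0% had an unadjusted p under 0.05 for it and 0.0% an adjusted p under 0.05.

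**Figure D3:**
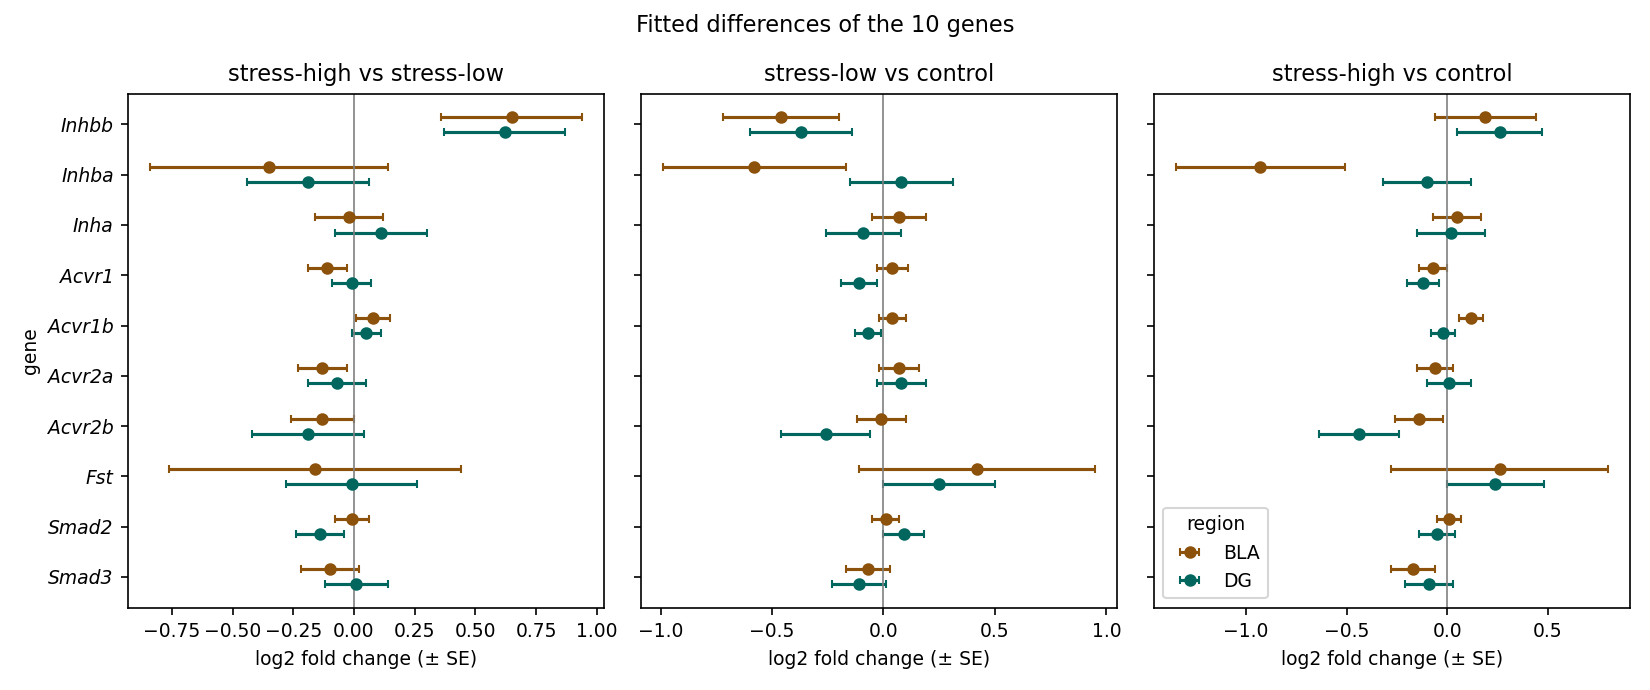
Fitted log2 fold change (x axis) of each of the 10 genes in BLA and DG for the 3 comparisons of groups, with bars of 1 SE. Inhbb is at 0.65 in the BLA and 0.62 in the DG in stress-high against stress-low animals, while the receptors, Smad2 and Smad3 lie between -0.19 and 0.08.

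To ask whether the other genes varied with Inhbb from animal to animal, their log2(TPM + 1) levels were related to that of Inhbb, among the 6 kept BLA controls (which played no part in choosing Inhbb) and over the 11 kept DG libraries. In BLA controls the receptor Acvr1b had the largest r on this scale (Pearson r = 0.80, exact permutation p = 0.0625; Spearman rho = 0.89, exact permutation p = 0.0333), but with Benjamini-Hochberg adjustment over 9 genes the permutation p were 0.325 and 0.3. Acvr2b had r = 0.76 and rho = 0.66 (adjusted exact permutation p of 0.325 and 0.362), and Smad2 had r = 0.66 and rho = 0.77 (0.422 and 0.362). Fst and Inhba had negative r, at -0.44 and -0.47, each with an adjusted exact permutation p of 0.422. Without animals 35 and 27, the farthest from the median of Inhbb, r was 0.92 for Acvr1b, 0.87 for Acvr2b and 0.99 for Smad2 over the 4 remaining libraries. With the left-out control 2 included, r was 0.25 for Acvr1b and 0.80 for Acvr2b. On log2 counts per gene scaled by library (CPM), r was 0.77 for Acvr1b and -0.86 for Smad3, so that the order of the genes depended on the scale and the libraries, and the difference between regions was not tested.

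Over the 11 DG libraries, which unlike the BLA set include all groups, r with Inhbb was 0.18 for Acvr1b, -0.37 for Acvr2b, -0.15 for Smad2, -0.38 for Fst and -0.02 for Inhba, and the lowest adjusted permutation p (100000 resamples) over the 9 genes was 0.807 for r and 0.583 for rho. The largest size of r was that of Acvr2a, at -0.47 (permutation p = 0.139; rho = -0.55, permutation p = 0.0883). Without animals 20 and 2, the farthest from the median of Inhbb, r for Acvr2a was -0.39, and that for Smad2 moved from -0.15 to -0.76. Over all 12 kept BLA libraries, which include those that chose Inhbb, r was 0.53 for Acvr1b, 0.42 for Smad2, 0.25 for Acvr2b, -0.26 for Fst and -0.50 for Smad3, given as a description.

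**Figure D4:**
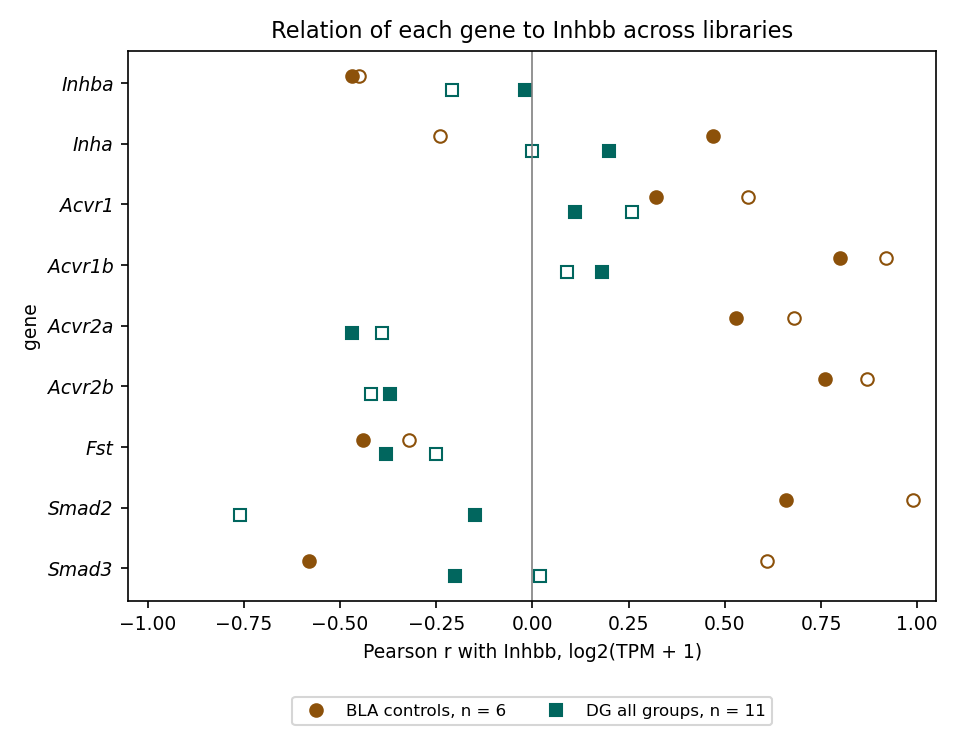
Pearson r (x axis) between log2(TPM + 1) of Inhbb and of each other gene, for 6 BLA controls (circles) and 11 DG libraries of all groups (squares); open symbols are r without the 2 libraries farthest from the median of Inhbb. Acvr1b, Acvr2b and Smad2 have positive r in BLA controls and r from -0.37 to 0.18 in the DG.

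Among the 13309 named genes tested in both regions, those most like Inhbb over the 12 BLA libraries were Trim54, Bbc3 and Pcdhga7 (r = 0.92 each) and Rab3c and Xrcc2 (r = 0.89 each). Their r with Inhbb over the 11 DG libraries was -0.22, 0.06, 0.36, -0.36 and -0.10. The most opposed were Crabp1 (r = -0.90), RT1-A1 (r = -0.89) and Eef1b2 (r = -0.84), with r of -0.18, -0.10 and 0.02 in the DG. For Inhba over the DG libraries, genes among the most like were Gls2 (r = 0.88), Anpep (r = 0.87), Calu (r = 0.86) and Rdm1 (r = 0.85), and the most opposed were Stra6 (r = -0.90), Usp51 (r = -0.89) and Mfsd11 (r = -0.88). Anpep alone of these had an r over 0.5 with Inhba in the BLA, at 0.69. These r share libraries and groups and were picked as extremes, so they are a description.

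The wider pathway was read from a list of 54 other genes (ligands, receptors and co-receptors, antagonists, intracellular mediators and Smad2/3 targets). In the DG, 5 of the 43 tested were higher in stress-high than in stress-low animals at an unadjusted p under 0.05 and 0 were lower, a share of 11.6% against 3.12% of all DG genes; 0 had an adjusted p under 0.05. The 5 were Tgfb3, Pmepa1, Smad9, Ski and Bmp7. Tgfb3, a ligand of the transforming growth factor beta branch that also signals through Smad2 and Smad3, was at 3.39, 4.63 and 4.96 TPM in stress-low animals 22, 33 and 34 and at 7.58, 6.56 and 5.99 TPM in stress-high animals 7, 19 and 20. All stress-high DG libraries lay above all stress-low libraries, a pattern shared by 4.18% of all tested DG genes. They also lay above all kept controls (4.61 to 5.63 TPM), for which the share over all genes was not computed. The difference from stress-low animals was 0.65 (SE 0.15, unadjusted p = 0.000964, edgeR adjusted p = 1.0). Against controls it was 0.43 (SE 0.13, unadjusted p = 0.00671, edgeR adjusted p = 1.0). In the BLA, Tgfb3 was at 7.28 ± 1.27 TPM in stress-low and 7.27 ± 0.358 TPM in stress-high animals (SD, n = 3 each), and the BLA difference minus the DG difference was -0.63 (SE 0.24).

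Pmepa1, a Smad target whose product restrains the receptor-activated Smads, was at 26.38, 36.75 and 28.99 TPM in stress-low DG libraries and at 46.43, 56.42 and 37.94 TPM in stress-high DG libraries. Every stress-high library again lay above every stress-low library, as for 4.18% of all tested DG genes. The fitted difference was 0.63 (SE 0.17, unadjusted p = 0.00291, edgeR adjusted p = 1.0). Stress-low animals were below controls by a log2 difference of -0.39 (SE 0.16, unadjusted p = 0.0301, edgeR adjusted p = 0.718), with overlapping ranges. In the BLA, Pmepa1 was higher in stress-high animals (33.6 ± 5.15 TPM, SD, n = 3) than in controls (27.1 ± 5.64 TPM, n = 6) by 0.31 (SE 0.14), with an unadjusted p of 0.0389 and an adjusted p of 1.0 (edgeR). The BLA ranges overlapped, from 28.13 to 38.33 TPM in stress-high animals and from 20.18 to 35.29 TPM in kept controls. The left-out control 2 was at 42.37 TPM. Stress-low BLA libraries were at 31.1 ± 2.80 TPM (n = 3).

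Smad9, a Smad of the bone morphogenetic protein branch, had low counts (5.0 to 26.0 in the stressed DG libraries) and a DG difference of 0.97 (SE 0.32, unadjusted p = 0.00827, edgeR). Bmp7, a ligand of the same branch, had 1.14 (SE 0.50, unadjusted p = 0.0382, edgeR) with 9.0 to 47.0 counts, and Ski, a corepressor of Smads, had 0.16 (SE 0.06, unadjusted p = 0.0242, edgeR) at 71.5 ± 2.44 TPM in stress-low and 79.7 ± 3.51 TPM in stress-high animals (SD of each). The adjusted p was 1.0 for each (edgeR). Of the cell type markers in this comparison, the meningeal marker Dcn was higher (1.28 to 1.73 TPM in stress-low, 1.97 to 3.45 TPM in stress-high animals; log2 difference 0.89, SE 0.28) and the BLA excitatory marker Lmo3 lower (-0.29, SE 0.13) at an unadjusted p under 0.05, with an adjusted p of 1.0 each (edgeR). These genes did not stand for their lists. Over the 4 tested meninges and choroid plexus markers the fitted differences ran from -0.34 to 0.89, with a median of -0.14. Over the 5 BLA excitatory markers they ran from -0.29 to 0.17, with a median of -0.08. The summed TPM of the 6 meninges and choroid plexus markers ranged from 4.53 to 10.4 in stress-low and from 6.35 to 9.16 in stress-high libraries. The part of the meninges and choroid plexus markers in the differences was not tested. The DG stress-high libraries were all deeper than the stress-low libraries, and the part of depth in these differences was not tested.

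**Figure D5:**
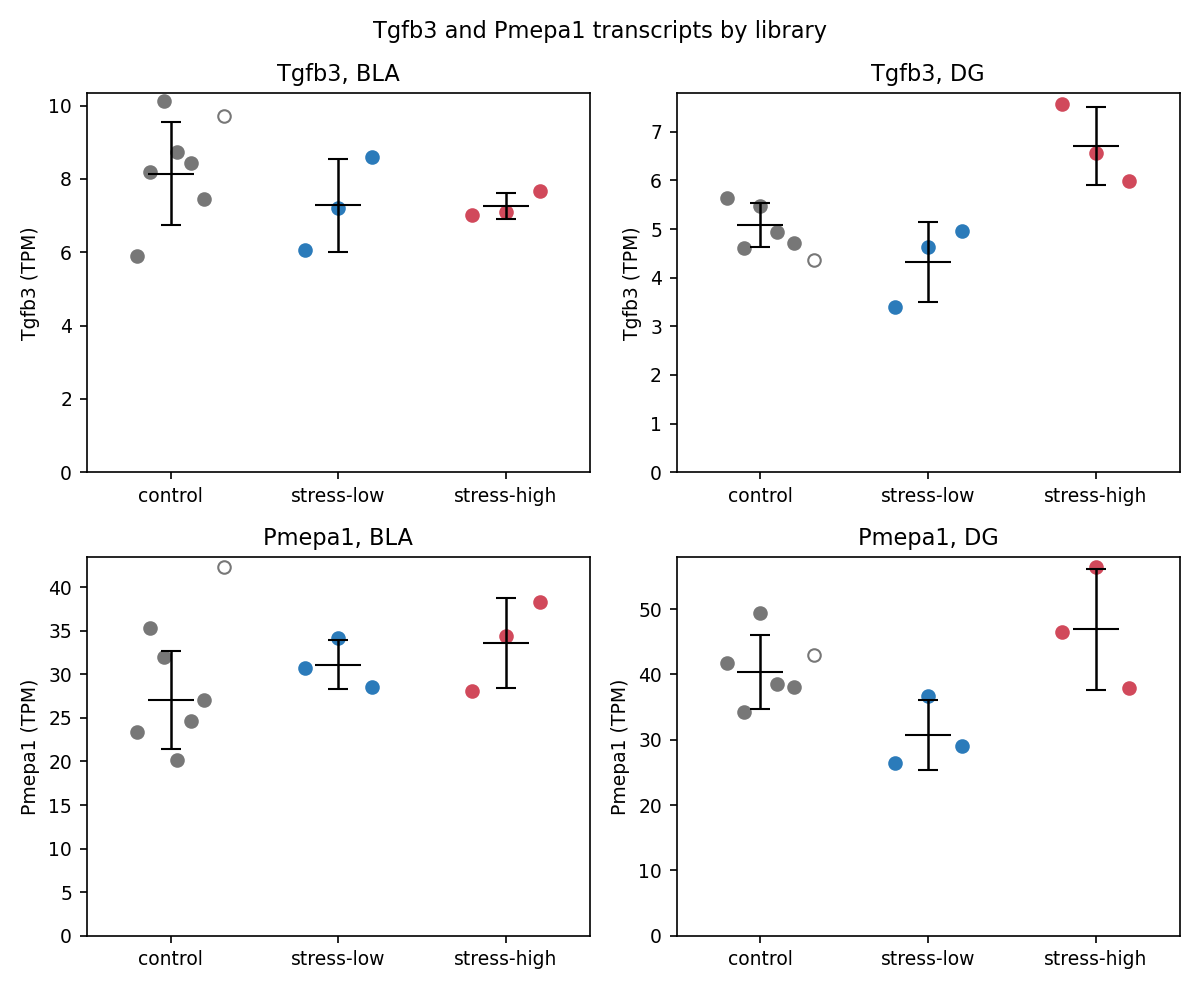
Level of Tgfb3 (upper row) and Pmepa1 (lower row) in TPM in each BLA and DG library, by group; filled points are libraries in the main comparisons, open points the left-out controls, and black lines the mean ± SD. In the DG the stress-high libraries of Tgfb3 (5.99 to 7.58 TPM) and of Pmepa1 (37.94 to 56.42 TPM) lie above all stress-low libraries, which does not occur in the BLA. Of all tested DG genes, 4.18% show this order in the DG.

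In the other comparisons of stress groups with controls, fewer genes of the list were at an unadjusted p under 0.05. For stress-low against control, 2 of 45 genes were higher and 0 lower in the BLA (4.44%, against 2.75% of all BLA genes). In the DG, 0 of 43 were higher and 4 lower (9.3%, against 6.9% of all DG genes, the largest such share of any comparison). The BLA genes were Bmp2 (0.86, SE 0.39) and the cell cycle inhibitor Cdkn1a (0.44, SE 0.15). Bmp2 was at 3.17 TPM in stress-low animal 30, while animals 22 and 34 (1.25 and 1.5 TPM) lay within the kept controls (0.99 to 2.02 TPM). Its counts in those controls were 6 to 23, and the left-out control 2 was at 2.89 TPM. The DG genes were Pmepa1, Gdf11 (-0.25, SE 0.11), a ligand of activin receptors, Ski (-0.13, SE 0.06) and Tgfb1, named beyond the limit of 6 genes a comparison. For stress-high against control, 1 was higher and 1 lower of 45 in the BLA (4.44%, against 2.57% of all BLA genes). In the DG, 1 of 43 was higher (2.33%, against 2.19% of all DG genes). The lower BLA gene was Fstl3, a follistatin-like antagonist of activin, at -0.53 (SE 0.23, unadjusted p = 0.0399, edgeR adjusted p = 1.0). It was at 0.75, 0.97 and 1.09 TPM in stress-high animals 7, 19 and 20 and at 1.33 ± 0.254 TPM (SD, n = 6) in controls, with 17.0 to 35.0 counts in all of these libraries.

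Of the 12 activity-regulated genes, 0 were among those that differed between stress-high and stress-low DG animals at an unadjusted p under 0.05, against 3.12% of all DG genes. Against controls, stress-low DG animals had lower Arc (-0.34, SE 0.15) and Junb (-0.21, SE 0.09) and higher Homer1 (0.18, SE 0.08), and stress-high DG animals had higher Nptx2 (0.28, SE 0.12). In the BLA, Nr4a1 was lower in stress-low animals than in controls (-0.37, SE 0.14). None of these passed the adjusted test (edgeR, adjusted p from 0.718 to 1.0). Of all DG genes, 6.9% were at an unadjusted p under 0.05 for stress-low and 2.19% for stress-high against control. In the BLA it was 2.75% of all genes for stress-low against control.

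The library names also mark controls as HI or LO, and these libraries took no part in choosing the genes. In the BLA, Inhbb was at 4.28 ± 0.767 TPM in HI and 3.34 ± 1.92 TPM in LO controls (SD, n = 3 each), a difference of 0.35 (SE 0.28), and its value was 0.80 without control 27 and 0.04 without control 35. Smad3 was lower in HI than in LO controls by a log2 difference of -0.25 (SE 0.11, unadjusted p = 0.0357, edgeR adjusted p = 0.997), the only 1 of 10 genes at an unadjusted p under 0.05, against 3.47% of all genes and 0.0% at an adjusted p. It was -0.10 without control 35, which had 12.92 TPM against 8.93 to 10.59 TPM in the others. In the DG, 0 of 10 genes passed at an unadjusted p under 0.05, against 3.59% of all genes and 0.007% (1 gene) at an adjusted p. There Inhbb was lower (-0.40, SE 0.26) and Inhba higher (0.51, SE 0.27) in the 3 HI than in the 2 LO controls without overlap, as were 8.4% of all DG genes below and 7.05% above, with an exact 2-sided permutation p of 0.2, the smallest that this design allows. The Inhba difference was 0.10 without control 28 and 1.03 without control 2. The other 8 genes differed by -0.34 to 0.21 between HI and LO in the DG, and the 8 other than Inhbb and Smad3 by -0.11 to 0.16 in the BLA. Of the pathway list in these DG controls, Mstn (0.99, SE 0.36) and Tgif1 (1.33, SE 0.59) were higher and Grem1 (-0.56, SE 0.24) lower in HI at an unadjusted p under 0.05, with an adjusted p of 1.0 each (edgeR). They made up 6.82% of the 44 pathway genes tested there, against 3.59% of all DG genes. Tgif1 counts were low, at 2 and 12 in LO controls 2 and 28 and from 16 to 23 in the HI controls. In the BLA controls the genes of the pathway list at an unadjusted p under 0.05 were Tgfbr3 and Smad7, higher in HI, and Ctgf, lower in HI. That was 6.67% of the 45 tested, against 3.47% of all BLA genes.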

How the data were processed

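Poly-A RNA from rat BLA and DG punches was sequenced in 25 libraries. The authors aligned the reads with STAR 2.6.0a to Rn5 with Ensembl 75 annotation and quantified genes with RSEM 1.3.1, and they deposited, per library, the expected count, TPM and FPKM of each gene together with its length. The FPKM values, deposited by the authors, were not used. Groups came from the sample labels.

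Expected counts were rounded and tested with the edgeR 4.0.16 quasi-likelihood test in R 4.3.3 (TMM scaling, genes kept by filterByExpr with a minimum count of 10, 3 group means per region, or 4 where controls were split into HI and LO), with Benjamini-Hochberg adjustment over the genes tested (15230 in the BLA, 14080 in the DG, 14287 for DG control HI against LO and 15453 for the difference between regions). The SE of a log2 difference was taken as its size divided by the square root of the F statistic of this edgeR test. The fit of the difference between regions had no term for the animal, although most animals gave a library in both regions. Its SE therefore treats libraries of the same animal as independent. The study's own test was another one (EBSeq). Following the study, 1 control per region was left out, here the one farthest from the median on the first principal component of log2(TPM + 1). Differences in mean TPM were tested by exact 2-sided permutation, and relations by exact permutation up to 7 libraries and by 100000 resamples otherwise (SciPy 1.17.1). The fits were tested on simulated data.

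The 10 genes and the gene lists were chosen with earlier results of these data known. The 10 genes were described throughout, singly or as a range; other listed genes were named at an unadjusted p under 0.05, up to 6 per comparison. The genes most like Inhbb and Inhba were named by Pearson r, and 1 of them is not reported here. Alternatives were DESeq2 1.42.0, other size factors, no filter, limma 3.58.1 on log2(TPM + 1) or log2(TPM + 0.1), all mapped libraries, a fit of only the 2 groups compared, a replicate block and leaving out each library. Upstream sequences came from RefSeq.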

Additional observations from a re-analysis of the deposited data

Results flagged for a closer look

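Inhba in the DG controls was set apart by 1 animal. Animal 28 had 2.62 TPM, while the other 4 kept controls had 4.99 to 5.62 TPM, and its gap to the nearest control was 0.79 of the range, above the critical value of 0.71 for 5 libraries. This was 1 of 20 groups examined in this way, and chance sets apart about 1 in 20.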

How the results depend on the processing

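Under 133 alternatives over 9 comparisons, 0 of the 10 genes passed an adjusted p of 0.05, with 0 to 2 at an unadjusted p under 0.05. Over all genes, 0 to 5 passed an adjusted p of 0.05. The 9 comparisons include BLA stress-high against stress-low, which chose Inhbb, and the difference between regions, which contains it. For these comparisons the counts are a description and not a test. Of 1330 fold changes recomputed for the 10 genes, 1312 moved by less than the spread between replicates, 18 moved by more. In the DG, Inhbb in stress-high against stress-low animals ranged from 0.35 (limma on log2(TPM + 1)) to 0.75 (without stress-high animal 7). The replicate numbers in the titles did not pair libraries of different groups: same-number deviations correlated from -0.13 to 0.07 in the BLA and from -0.19 to 0.11 in the DG. With the replicate block, 0 of the 10 genes passed in each of the comparisons that were tested. The DG Inhbb difference between stress-high and stress-low animals was then 0.55 (SE 0.27, unadjusted p = 0.0711, edgeR). The BLA Inhbb difference between stress-low animals and controls was -0.61 (SE 0.17, unadjusted p = 0.00473, edgeR) in place of -0.46 (unadjusted p = 0.0943, edgeR). Control 35 was the only BLA library with replicate number 4, so the block took it out of that BLA difference. Leaving out control 35 also gave -0.61 (SE 0.17), and these settings are not independent of each other. The stress-low BLA libraries took part in choosing Inhbb, so a low p for this BLA difference is not separate evidence of it. Counts were below 100 in every kept library for Inhbb, Inhba, Acvr2b and Fst in the DG and for Inhba and Fst in the BLA. These low counts limit what could be detected there.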
